A study of Drosophila melanogaster with 10 samples.

Results

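The 8 genes described here make or load dopamine, serotonin and octopamine, or take back dopamine and serotonin, in fly neurons. They are ple, Ddc, Tbh, Tdc2, Trh, Vmat, DAT and SerT, chosen by name for their role, with earlier results of these data known. All 8 were found among the 11621 genes of the deposited table. RNA was extracted with Trizol from frozen brains, and sequenced, from male Drosophila melanogaster labelled Wild-type (W1118), aged 4 to 7 days, after feeding on 1 of 2 diets. HPLC is a high-protein, low-carbohydrate diet with 1 part protein to 2 parts carbohydrate at 360 g/L, and LPHC is a low-protein, high-carbohydrate diet with 0 parts protein to 1 part carbohydrate at 360 g/L. Each diet had 5 libraries. Flies of both diets carried the same white allele, and white encodes a transporter subunit that moves pigment precursors into cells. By the submitters' account, flies tasted sucrose more strongly after HPLC and less strongly after LPHC, and the question here is whether transcripts of the amine genes differ between such brains. The sources used here do not say how many brains made up a library or whether the 5 of a diet came from separate cultures. The p-values therefore rest on library-to-library spread, some of which may be technical.

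In neurons, each amine starts from an amino acid of the diet. Tyrosine hydroxylase, the product of ple, turns tyrosine into L-DOPA in the rate-limiting step of dopamine synthesis, and tryptophan hydroxylase, the product of Trh, starts serotonin synthesis in the same way. Dopa decarboxylase, from Ddc, completes both. Tyrosine decarboxylase, from Tdc2, makes tyramine, which tyramine β-hydroxylase, from Tbh, turns into octopamine. The vesicular transporter Vmat loads all of these amines into vesicles, and the membrane transporters DAT and SerT take dopamine and serotonin back up after release. In flies, dopamine and octopamine are known to tune feeding and the response of the taste system to sugar. ple and Ddc also work outside neurons, in hardening and colouring cuticle. Trh is the neuronal enzyme, now named Trhn, and not the transcription factor trh, which has its own entry, and DAT is the dopamine transporter and not the acetyltransferase once called Dat.

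The libraries held 19834344 to 38402635 reads, and the members were covered by 357 to 19116 reads per library. Values are normalised read counts as deposited. Neuron markers took 1.05% to 1.18% of reads in HPLC libraries and 1.23% to 1.44% in LPHC libraries, and none of the 13 was at 0. Photoreceptor genes, which mark the eye, took 8.65% to 10.7% of reads in HPLC libraries and 11.6% to 12.8% in LPHC libraries. Among markers of other cells, 8 of 8 tested fat body genes, 4 of 10 haemocyte genes and 3 of 9 glia genes were higher on HPLC, and 1 haemocyte gene was lower. Of 13 neuron markers 5 were lower, as were 5 of 15 photoreceptor and 6 of 11 tested muscle genes. Among all 9896 tested genes, 22.1% were higher and 18.9% lower on HPLC. When libraries were instead scaled on the summed neuron markers, 6 glia markers were higher, 4 muscle markers were lower and 1 higher, and no photoreceptor marker passed. No neuron marker passed either, which follows largely from construction, because that scaling holds their sum equal between libraries. It also left 3130 of all 9896 tested genes higher and 210 lower. With upper-quartile scaling 11 neuron markers were lower, as were 3275 of all 9896 tested genes, and no glia marker passed. The part of these cell types in the results below was not tested. In RNA from whole brains, fewer cells of a type and less RNA per cell cannot be told apart.

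On HPLC, the dopamine enzyme gene ple was higher, and Ddc, Tdc2 and Tbh were lower, as deposited. Trh and the transporters Vmat, DAT and SerT did not pass the test. limma, a linear model fitted to all genes on the log2(value + 1) scale with Benjamini-Hochberg adjustment, called 4 of 8 members, against 40.9% of the 9896 genes tested. Higher calls were 1 of 8 members against 22.1% of all genes, and lower calls were 3 of 8 against 18.9%. With upper-quartile scaling 1 member was higher and 4 lower, with quantile scaling 1 and 5, and with neuron-marker scaling 2 and 0. All-gene counts shifted as well. Of the 9896 tested genes, 1766 were higher and 3275 lower with upper-quartile scaling. The counts were 1682 and 3902 with quantile scaling, and 3130 and 210 with neuron-marker scaling. The members' changes were small, from −0.28 to 0.29 on the log2 scale, with a median of −0.089 against −0.03 for all tested genes. The median size of change regardless of sign was 0.15 for the members and 0.17 for all tested genes. Diets did not overlap for 2 of 8 members, against 29.2% of all tested genes. These were ple, higher on HPLC, against 17.4% of all genes in that direction, and Ddc, lower, against 11.7%.

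ple (FBgn0005626) had 1832, 1895, 1771, 1814 and 1889 normalised counts in the HPLC libraries, against 1456, 1445, 1485, 1602 and 1563 in the LPHC libraries. All 5 HPLC libraries lay above all 5 LPHC libraries. The mean was 1840.4 ± 52.2 on HPLC and 1510.3 ± 68.9 on LPHC (SD, n = 5 each), 1.22-fold higher on HPLC. Its difference on the log2 scale was 0.29 ± 0.05 (SE; limma adjusted p = 1.85e-04), and ple was called in every alternative run, including all 5 scalings of the libraries. A larger change in size was seen in 30.2% of tested genes. Of 9 tested cuticle and trachea markers, 2 were higher and 3 lower on HPLC, and the list took 0.0128% to 0.0149% of reads in HPLC libraries and 0.0147% to 0.0171% in LPHC libraries. Haemocyte markers took 0.0721% to 0.0921% of reads in HPLC libraries and 0.046% to 0.08% in LPHC libraries. Their part in the rise of ple was not tested.

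Trh (FBgn0035187), which opens serotonin synthesis, had 908, 948, 883, 893 and 854 normalised counts in HPLC libraries, against 1024, 942, 970.1, 1064 and 925 in LPHC libraries. The diets overlapped, although 4 of 5 HPLC libraries lay below the lowest LPHC library. The mean was 897 ± 34.7 on HPLC and 985 ± 57.9 on LPHC (SD, n = 5 each). The log2 fold change was −0.13 ± 0.05 (SE; limma adjusted p = 0.0623) with a 95% interval from −0.25 to −0.0175. It passed without LPHC replicate 5 (limma adjusted p = 0.0492) and under upper-quartile (0.00534) and quantile scaling (0.00116), and turned to 0.04 when libraries were scaled on neuron markers. Reads of Trh and its neighbour CG13912 could be shared over 89 bases, 4.08% of its exons. CG13912 lies on the opposite strand and had 277 ± 52.6 normalised counts on HPLC and 116 ± 17.2 on LPHC (SD, n = 5 each).

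Ddc, whose enzyme serves both the dopamine and the serotonin route, moved the other way from ple. Ddc (FBgn0000422) had 10433, 9788, 9531, 9241 and 9425 normalised counts in HPLC libraries, against 13293, 11028, 12138, 11115 and 11422 in LPHC libraries. Every HPLC library lay below every LPHC library, with LPHC replicate 1 the highest of all. The mean was 9683 ± 463 on HPLC and 11799 ± 942 on LPHC (SD, n = 5 each), or 0.821 of the LPHC mean. The log2 fold change was −0.28 ± 0.06 (SE; limma adjusted p = 0.00216), and the call held without each library in turn (adjusted p up to 0.00831). When libraries were scaled on neuron markers, the direction stayed and the call was lost (log2 fold change −0.11, limma adjusted p = 0.387). The neuron marker list was itself lower on HPLC in its summed level by 0.17 on the log2 scale (exact permutation p = 0.0317, two-sided), and its part in the fall of Ddc was not tested. Ddc shares 88 bases, 3.15% of its exons, with CG10561 on the opposite strand.

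**Figure D1:**
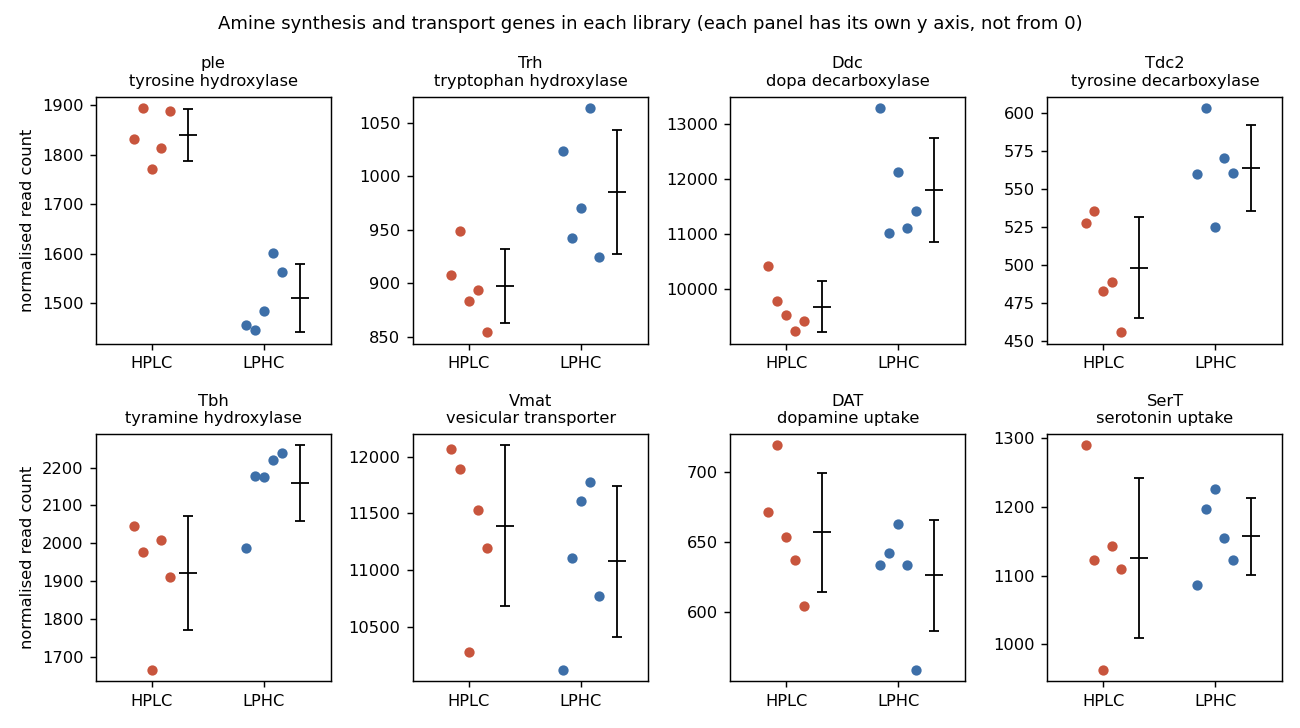
Normalised read counts (y axis, a separate range per panel that does not start at 0) of the 8 genes in the 5 HPLC and 5 LPHC libraries, with black bars for the mean and SD. ple sits between 1771 and 1895 on HPLC and between 1445 and 1602 on LPHC, Ddc is lower in every HPLC library, and the other 6 genes overlap between diets.

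The octopamine route was lower at both of its steps as deposited. Tdc2 (FBgn0050446), which makes tyramine, had 528, 535, 483, 489 and 456 normalised counts in HPLC libraries, against 559.8, 603, 525, 571 and 561 in LPHC libraries. 3 of 5 HPLC libraries lay below the lowest LPHC library. The mean was 498 ± 33.0 on HPLC and 564 ± 28 on LPHC (SD, n = 5 each), a log2 difference of −0.18 ± 0.06 (SE; limma adjusted p = 0.0320). The call was lost without HPLC replicate 4 (0.0636) or 5 (0.0922) and without LPHC replicate 2 (0.0777), 4 (0.0598) or 5 (0.0560). Scaled on neuron markers, the difference was −0.0058 (limma adjusted p = 0.971).

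Tbh (FBgn0010329), which turns tyramine into octopamine, had 2045, 1977, 1666, 2009 and 1911 normalised counts in HPLC libraries, against 1988, 2178, 2176, 2219 and 2237 in LPHC libraries. HPLC replicate 3 was the lowest of all, LPHC replicate 1 lay among the HPLC values, and the other 4 LPHC libraries lay above every HPLC library. The mean was 1922 ± 151 on HPLC and 2159.6 ± 99.4 on LPHC (SD, n = 5 each), a log2 difference of −0.17 ± 0.06 (SE; limma adjusted p = 0.0339). The call was lost without HPLC replicate 3 (0.0640) or 5 (0.0640) and without LPHC replicate 2 (0.0580), 3 (0.0646), 4 (0.0712) or 5 (0.0790). The change turned to 0.0027 when libraries were scaled on neuron markers (limma adjusted p = 0.982). With the replicate number as a block, Tbh was not called (limma adjusted p = 0.0510).

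None of the 3 transporters passed the test as deposited. Vmat (FBgn0260964) had 12070.3, 11888, 10283, 11534 and 11196 normalised counts in HPLC libraries, against 10126, 11104, 11609, 11779.6 and 10774 in LPHC libraries. The diets overlapped, and HPLC replicate 3 was the lowest of its diet. The log2 fold change was 0.040 with a 95% interval from −0.094 to 0.18 (limma adjusted p = 0.646). It turned to −0.044 under upper-quartile and −0.042 under quantile scaling, and was called higher when libraries were scaled on neuron markers (0.21, limma adjusted p = 0.0178). In the annotation, 26.2% of the exonic length of Vmat lies opposite exons of CG13330, which is not analysed here. Strand use in counting is not given, so reads of the pair may be mixed.

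DAT (FBgn0034136) had 672, 719.5, 653, 637 and 604 normalised counts in HPLC libraries, against 634, 642, 663, 634 and 559 in LPHC libraries. The groups overlapped, with HPLC replicate 2 highest and LPHC replicate 5 lowest. The log2 fold change was 0.069 with a 95% interval from −0.065 to 0.20 (limma adjusted p = 0.405), and it turned to −0.015 under upper-quartile and −0.053 under quantile scaling. On neuron-marker scaling it was 0.24 (limma adjusted p = 0.0550). SerT (FBgn0010414) had 1290.2, 1123, 963, 1143 and 1109.9 normalised counts in HPLC libraries, against 1087, 1197, 1227, 1155 and 1122 in LPHC libraries. Both the highest and the lowest value of SerT were in HPLC libraries, which varied more (CV 10.3%) than the LPHC libraries (4.85%). The log2 fold change was −0.045 with a 95% interval from −0.19 to 0.098 (limma adjusted p = 0.628). It turned to 0.13 on neuron-marker scaling and to 0.0097 without HPLC replicate 3, and was called lower under quantile scaling (−0.17, limma adjusted p = 0.0493).

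The number of calls across all genes differed between scalings. As deposited, 2185 genes were higher and 1866 lower on HPLC, against 1766 and 3275 with upper-quartile, 1682 and 3902 with quantile and 3130 and 210 with neuron-marker scaling. The median log2 fold change of all tested genes was −0.03 as deposited, and −0.11, −0.14 and 0.14 under those scalings. Relative to that median, ple stood at 0.30 to 0.31 and Ddc at −0.25 to −0.22 over the 5 scalings. On the same basis Tdc2 stood at −0.17 to −0.15, Tbh at −0.14, Trh at −0.12 to −0.10, SerT at −0.033 to −0.016, Vmat at 0.068 to 0.095 and DAT at 0.084 to 0.098. Subtracting the median removes most of what a single factor per library does, so the narrow ranges follow from the construction.

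**Figure D2:**
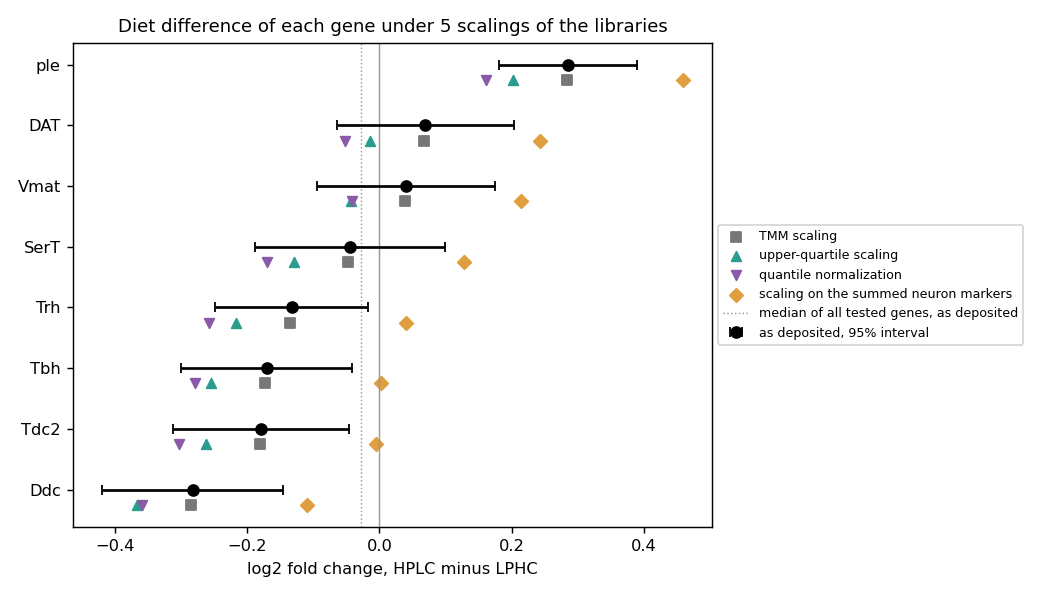
Log2 fold change of each gene, HPLC minus LPHC (x axis), as deposited with its 95% interval (black) and under 4 other scalings (coloured symbols). ple is positive and Ddc negative under all 5, Tdc2 comes to −0.0058 on neuron-marker scaling, and the other 5 genes change sign under at least 1 scaling.

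A ratio of 2 genes within a library does not depend on a single scaling factor per library; quantile normalization, which is not such a factor, can change it and was not applied to the ratios. All 28 pairs of members were compared between diets by an exact permutation test of the log2 ratio (two-sided, smallest possible p = 0.00794, adjusted over the 28). Of these, 14 passed, 6 of them among the 7 pairs with ple. Without each library in turn, 11 of the 14 passed every time. The values of the diets did not overlap for 12 of the 28 pairs, against 32% of all pairs of tested genes.

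ple stood higher relative to Ddc in each HPLC library than in any LPHC library. The ple to Ddc ratio was 0.176, 0.194, 0.186, 0.196 and 0.2004 in HPLC libraries, against 0.1095, 0.131, 0.122, 0.144 and 0.137 in LPHC libraries. The log2 ratio of these 2 dopamine synthesis genes was higher on HPLC by 0.57, or 1.48-fold (exact permutation p = 0.00794, adjusted p = 0.0185). Every HPLC library was already higher for ple and lower for Ddc, so this ratio could not overlap between diets. Its p was therefore bound to be the smallest possible and adds no evidence beyond the 2 single genes. The ple to Trh ratio, which sets the first step of dopamine synthesis against that of serotonin synthesis, was 2.02, 1.998, 2.01, 2.03 and 2.21 in HPLC libraries. In LPHC libraries it was 1.42, 1.53, 1.53, 1.51 and 1.69. No HPLC library overlapped an LPHC library, and the log2 ratio was higher on HPLC by 0.42, 1.34-fold (exact permutation p = 0.00794, adjusted p = 0.0185). ple was also higher relative to Tdc2 and Tbh (0.46 each), SerT (0.33) and Vmat (0.25), each with the same p. Against DAT the difference was 0.22 and did not pass (exact permutation p = 0.0317, adjusted p = 0.0523), and it passed without LPHC replicate 5 (adjusted p = 0.0185).

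**Figure D3:**
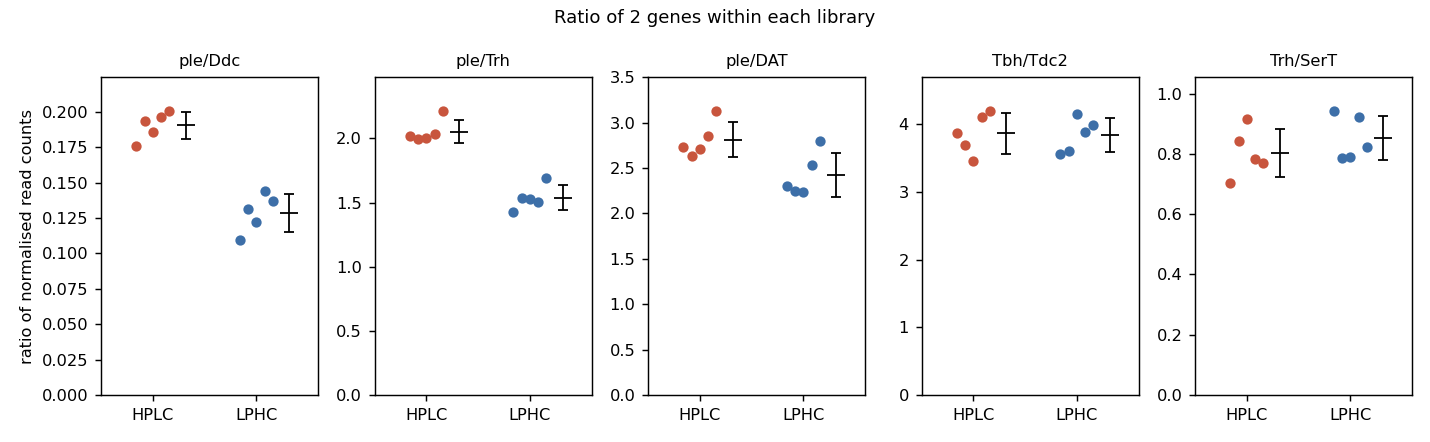
Ratio of normalised read counts of 2 genes within each library (y axes from 0), with black bars for the mean and SD of the 5 libraries of a diet. The ple to Ddc and ple to Trh ratios are higher in every HPLC library, and the ple to DAT, Tbh to Tdc2 and Trh to SerT ratios overlap between diets.

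Of the 12 pairs of a transporter with Ddc, Tbh, Tdc2 or Trh, 8 passed. No share of all gene pairs passing is at hand to set beside this count. As deposited, each transporter had a higher log2 fold change than each of these genes, so the differences all point the same way. Vmat was higher on HPLC relative to Ddc by 0.32 and relative to Tbh by 0.21 in log2 ratio, and DAT relative to Ddc by 0.35 and to Tdc2 by 0.25 (exact permutation p = 0.00794, adjusted p = 0.0185 for each). SerT was higher relative to Tbh by 0.13 with the same p. The differences for DAT with Trh (0.20, adjusted p = 0.0185) and Tbh (0.24, adjusted p = 0.0476) and for Vmat with Tdc2 (0.22, adjusted p = 0.0342) passed by exact permutation over all libraries. DAT with Trh was lost without any 1 of HPLC replicates 1, 2, 4 or 5 (adjusted p 0.0513 to 0.0556). DAT with Tbh was lost without any 1 library other than LPHC replicate 1 (0.0513 to 0.0833), and Vmat with Tdc2 without any 1 of HPLC replicates 1, 2, 4 or 5 or LPHC replicates 1, 2 or 5 (0.0593 to 0.0635). The other 4 pairs did not pass by exact permutation. They were SerT with Ddc (0.24, adjusted p = 0.0523), Tdc2 (0.13, adjusted p = 0.140) and Trh (0.088, adjusted p = 0.343), and Vmat with Trh (0.17, adjusted p = 0.0523). SerT with Ddc (adjusted p = 0.0317) and Vmat with Trh (0.0247) passed without HPLC replicate 3.

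The pairs of Tbh with Tdc2, of Trh with SerT and of the uptake transporters DAT and SerT did not pass. The Tbh to Tdc2 ratio was 3.45 to 4.19 in HPLC libraries and 3.55 to 4.15 in LPHC libraries, a difference in log2 ratio of 0.0083 (exact permutation p = 0.905). The Trh to SerT ratio was 0.704 to 0.917 in HPLC libraries and 0.787 to 0.942 in LPHC libraries, and the log2 ratio of SerT to Trh differed by 0.088 (exact permutation p = 0.294). Between the uptake transporters, the DAT to SerT ratio was 0.5205 to 0.679 in HPLC libraries and 0.498 to 0.583 in LPHC libraries (exact permutation p = 0.230). A p above the threshold does not show that these pairs moved alike.

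**Figure D4:**
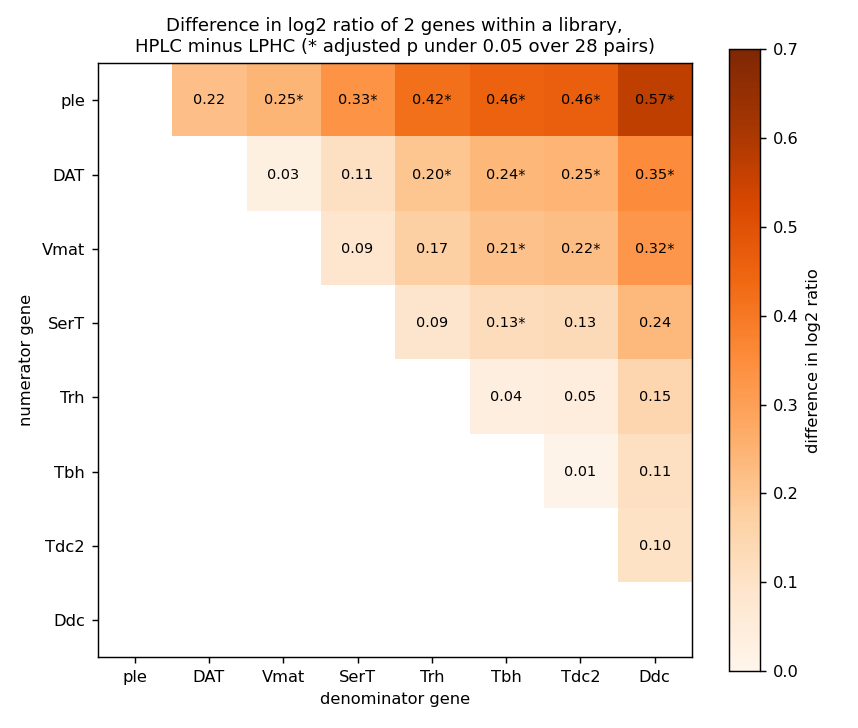
Difference in the log2 ratio of 2 genes within a library, HPLC minus LPHC, with the numerator gene in rows and the denominator gene in columns, ordered by fold change so that all values are positive by construction. The top row (ple) runs from 0.22 against DAT to 0.57 against Ddc, and asterisks mark the 14 pairs that passed.

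Set against every other tested gene, ple had a ratio that was higher in all HPLC libraries with 44.9% of the 9895 genes and lower with 9.02%. For Ddc the shares were 0.829% higher and 34.3% lower, for Tdc2 1.05% and 25.3%, for Tbh 1.2% and 25.1% and for Trh 2.01% and 22.2%. Vmat (12.2% higher and 13% lower) and DAT (12.0% and 11.2%) were more evenly placed. SerT had a lower ratio more often than a higher one (4.18% higher and 14.2% lower).

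Levels can be compared between genes only per length, here as normalised counts per kb of exon in the Ensembl annotation, which merges all transcripts of a gene. Ddc was highest at 3462 ± 166 per kb on HPLC and 4218 ± 337 on LPHC, followed by Vmat at 1401 ± 86.8 on HPLC and 1362 ± 81.8 on LPHC (SD, n = 5 each). ple and Trh changed places. ple was at 484 ± 13.7 per kb on HPLC, above Trh at 411 ± 15.9, and at 397 ± 18.1 on LPHC, below Trh at 451 ± 26.5 (SD, n = 5 each). The 2 genes did not overlap within either diet, but on LPHC the highest ple value was 421.0 and the lowest Trh value 423.5. Their order rests on the merged lengths, 3.806 kb for ple with 3 transcripts and 2.183 kb for Trh with 1. Tbh came next after Vmat in both diets, at 497 ± 39.0 per kb on HPLC, where it overlapped ple, and 558 ± 25.7 on LPHC. SerT (302 ± 31.2 on HPLC and 311 ± 15.1 on LPHC) lay above Tdc2 (216 ± 14.3 on HPLC and 245 ± 12.2 on LPHC) and DAT (216 ± 14.0 on HPLC and 206 ± 13 on LPHC). The last 2 overlapped on HPLC and not on LPHC.

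Within a diet, the members' CV ran from 2.84% (ple on HPLC) to 10.3% (SerT on HPLC). Counting error alone is at most 5.29%, for the 357 reads of Tdc2 in HPLC replicate 4, where that gene had its fewest reads. HPLC replicate 3 was below its diet's mean of log2 values for 8 of 8 members and the lowest of its diet for 4, and HPLC replicate 2 was above that mean for 8 of 8. The summed neuron markers of HPLC replicate 3 were also below the mean of its diet, by 0.13 on the log2 scale, and those of HPLC replicate 2 above it by 0.053. HPLC replicate 5 had 7 of 8 members below that mean, with its summed neuron markers above theirs by 0.073. HPLC replicate 1 had 7 of 8 members above, with its summed neuron markers at −0.0026 from their mean.

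Of the genes that supply the hydroxylases, some rose on HPLC, as ple did. Tyrosine, tryptophan and phenylalanine hydroxylases need tetrahydrobiopterin. Of 7 listed genes 4 were higher on HPLC, against 22.1% of all tested genes, with none lower and a list median of 0.26. The list holds genes of cofactor synthesis and recycling, Hn for tyrosine supply, and Catsup, a regulator of tyrosine hydroxylase and GTP cyclohydrolase. Over the 5 scalings 3 to 5 were higher and none lower, while 1682 to 3130 of all 9896 tested genes were higher and 210 to 3902 lower. The count of 5 was on neuron-marker scaling, which had the 3130 higher and the 210 lower. Hn, phenylalanine hydroxylase, which makes tyrosine, averaged 10771 ± 739 normalised counts on HPLC and 2704 ± 114 on LPHC (SD, n = 5 each), 3.98-fold higher. Dhpr, which recycles the cofactor, averaged 2152 ± 237 on HPLC and 1232 ± 143 on LPHC (log2 fold change 0.81 ± 0.08, SE; limma adjusted p = 6.27e-07). Pcd, which dehydrates the used cofactor, was higher by 0.34 ± 0.07, and Sptr, sepiapterin reductase, by 0.26 ± 0.06 (SE; limma adjusted p = 7.84e-04 and 0.00317). Pu, GTP cyclohydrolase, which catalyses the first step towards the cofactor and is named here after its values were seen, averaged 6308 ± 504 on HPLC and 6411 ± 1010 on LPHC (SD, n = 5 each; limma adjusted p = 0.925). Fat body markers, of a tissue that also breaks down amino acids, took 0.29% to 0.36% of reads in HPLC libraries and 0.0555% to 0.0754% in LPHC libraries, and their part in these rises was not tested.

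Genes that modify or clear amines split. Of 13 listed, 8 were tested, 2 higher and 3 lower on HPLC, against 22.1% higher and 18.9% lower among all tested genes. The other 5 are not analysed here. b, which makes the β-alanine joined to dopamine and histamine, was lower by 0.33 ± 0.07 on the log2 scale, and prt, a relative of the vesicular transporters, by 0.34 ± 0.07 (SE; limma adjusted p = 9.33e-04 and 0.00119). AANATL7, an acetyltransferase-like gene, was lower by 0.31 ± 0.09, and AANATL2 was higher by 0.42 ± 0.14 (SE; limma adjusted p = 0.00993 and 0.0230). The other gene called higher was e, named after its value was seen (0.40 ± 0.14, SE; limma adjusted p = 0.0344), opposite in direction to b. Under upper-quartile and quantile scaling 0 were higher and 4 lower, and under neuron-marker scaling 4 were higher and 0 lower. Counts over all 9896 tested genes moved in the same directions. They were 1766 higher and 3275 lower with upper-quartile, 1682 and 3902 with quantile, and 3130 and 210 with neuron-marker scaling.

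The histamine system, whose amine is the transmitter of photoreceptors, was lower for 4 of 6 tested genes, against 18.9% of all tested genes. None was higher, and the list median was −0.25. CarT, a transporter of the photoreceptors, averaged 6534 ± 412 on HPLC and 8746 ± 390 on LPHC (SD, n = 5 each; log2 fold change −0.42, limma adjusted p = 2.42e-05), and was called lower under all 5 scalings. The receptors ort (−0.34 ± 0.07) and HisCl1 (−0.22 ± 0.05) and the synthesis enzyme Hdc (−0.20 ± 0.08) were called as deposited and not on neuron-marker scaling (SE; limma adjusted p as deposited 0.00103, 0.00338 and 0.0455). On that scaling the list had 1 gene lower and 1 higher, with a median of −0.074. The higher one was ine, a transporter gene named after its value was seen (0.28, limma adjusted p = 0.0171). Neuron-marker scaling left 210 of all 9896 tested genes lower and 3130 higher. The photoreceptor genes as a whole were lower on HPLC in summed level by 0.21 on the log2 scale (exact permutation p = 0.00794), and their part in these falls was not tested.

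Of 17 amine receptors, 8 were lower on HPLC and 1 higher, against 18.9% lower and 22.1% higher among all tested genes. Their median log2 fold change was −0.18, close to that of the neuron markers (also −0.18). The 4 with the smallest adjusted p were the dopamine and ecdysteroid receptor DopEcR (−0.26 ± 0.06), the serotonin receptor 5-HT7 (−0.27 ± 0.07), the octopamine receptor Oamb (−0.20 ± 0.05) and the octopamine and tyramine receptor Oct-TyrR (−0.22 ± 0.06), all lower (SE; limma adjusted p = 0.00210 to 0.00858). The 1 receptor that was higher, named after its value was seen, was the serotonin receptor 5-HT1B (0.22 ± 0.07, limma adjusted p = 0.0156), which was not called under upper-quartile or quantile scaling. With upper-quartile scaling 14 receptors were lower and 0 higher, with quantile scaling 13 and 0, and with neuron-marker scaling 0 and 1. Among all 9896 tested genes, 3275, 3902 and 210 were lower under these scalings, in that order, and 1766, 1682 and 3130 were higher.

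Of 6 genes that make, load or take up acetylcholine, glutamate and GABA or their precursors, 3 were lower, against 18.9% of all tested genes. None was higher, and the median was −0.14. The lower ones were the choline transporter ChT (−0.30 ± 0.10), the GABA vesicular transporter VGAT (−0.14 ± 0.05) and the acetylcholine enzyme ChAT (−0.14 ± 0.05; SE; limma adjusted p = 0.0242, 0.0362 and 0.0468). On neuron-marker scaling none of the 6 was lower and 1 was higher, the glutamate vesicular transporter VGlut (0.22, limma adjusted p = 0.0104), named after its value was seen. That scaling left 210 of all 9896 tested genes lower and 3130 higher.

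**Figure D5:**
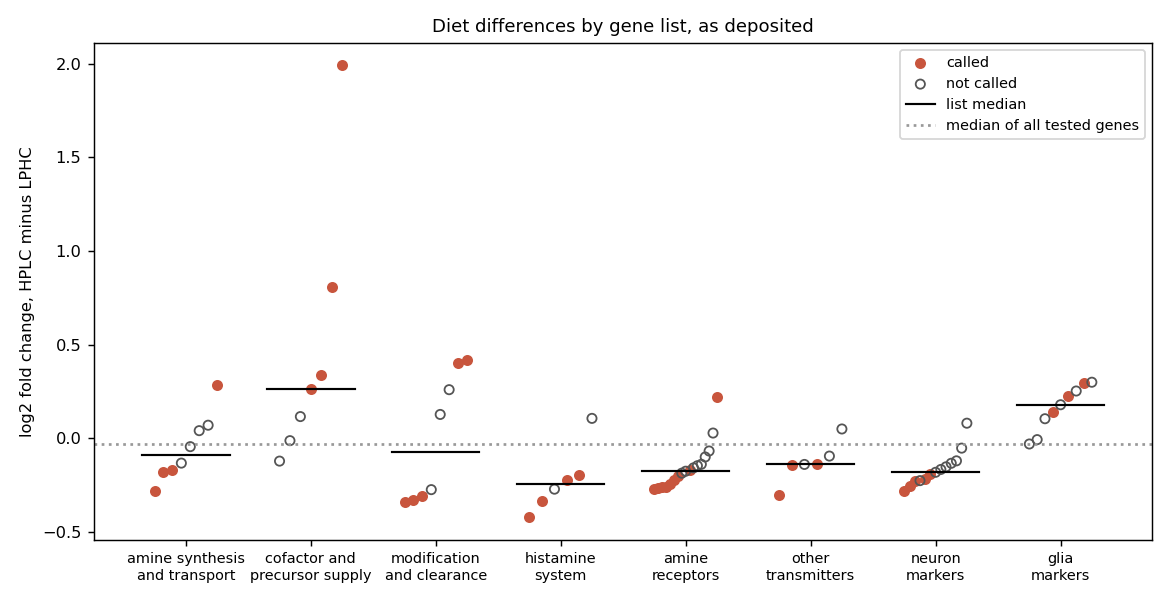
Log2 fold change, HPLC minus LPHC, as deposited (y axis) of each tested gene in the amine lists and in the neuron and glia markers, filled where called, with list medians as black bars. ple stands above the other members at 0.29, the supply genes reach 1.99 (Hn), and the receptor and neuron marker medians both lie at −0.18. On neuron-marker scaling these medians come to −0.0029 for the receptors and −0.0085 for the neuron markers, the latter largely by construction.

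The profiles over the 10 libraries most like those of the called members, by the smallest root mean square difference of log2 values centred on each gene's mean, were those of CG4332 (0.046) and Cad96Ca (0.049) for ple. For Ddc they were Pop2 and Acn (0.029 each), for Tbh Pi4KIIalpha (0.029) and dos (0.032), and for Tdc2 dan (0.039) and CG7110 (0.053). CG4332 averaged 524 ± 14.3 on HPLC and 426 ± 23.8 on LPHC, and Pop2 3461 ± 134 on HPLC and 4200.1 ± 221 on LPHC (SD, n = 5 each). These genes were picked for likeness from 9896, so their own differences carry no test.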

How the data were processed

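The deposited values are a signal, normalised counts for 10 brain libraries, and the steps in them show whole reads divided by a size factor for each library. HISAT2 appears, with no version, among the tools of the submitters' processing notes. Which counting tool, strand setting, annotation and genome build were used is not given in the sources used here. Coordinates are therefore left out. Whole reads were recovered for 100% of values (relative tolerance 1e-06). The recovered totals ran from 19834344 to 38402635, and the factors had a ratio of 1.0 to median-of-ratios factors.

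Diets were compared with limma 3.58.1 in R 4.3.3 (trend and robust options) on log2(value + 1). Of all genes, 9896 averaged 10 or more and were tested, and 1725 were left out. edgeR 4.0.16 and DESeq2 1.42.0 were run on recovered reads. Benjamini-Hochberg adjustment ran over all tested genes, with a threshold of 0.05. The fit was tested on simulated data. Log2 fold changes are HPLC minus LPHC.

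Members and gene lists were chosen with earlier results of these data known. Named genes are the 8 members, up to 4 called genes per amine list by adjusted p (up to 2 where none was called) and the 2 genes most like each called member. Exonic lengths and overlaps come from the Ensembl annotation (BDGP6). 5 scalings, pseudocounts of 0.5 and 5, filters, a replicate block and leaving out each library were alternatives. Same-numbered libraries did not deviate together (correlations −0.025 to 0.005), so the numbers were not treated as pairs.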

Additional observations from a re-analysis of the deposited data

Results flagged for a closer look

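Of 40 sets of 5 libraries examined (16 of them for members), 6 held a library far from the other 4 of its diet, by the gap to its nearest neighbour divided by the range. Chance flags about 1 in 20 sets. Tbh was 1988 normalised counts in LPHC replicate 1, against 2176 to 2237 in the other LPHC libraries. DAT was 559 in LPHC replicate 5, against 634 to 663 in the others. Among summed lists in HPLC libraries, the histamine system was 15123 in replicate 1 (others 16389.9 to 16809), photoreceptor markers were 2473648 in replicate 1 (others 2946318 to 3107263), amine receptors were 40038 in replicate 3 (others 44628 to 46494) and cuticle and trachea markers were 4239.8 in replicate 3 (others 3702 to 3849).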

How the results depend on the processing

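Of 168 values of single members under the alternatives, 141 kept their direction and their side of the threshold, 14 kept the direction and lost the call, 5 gained a call and 8 changed sign. Sign changes were seen on neuron-marker scaling for Tbh (0.0027), Trh (0.0404) and SerT (0.13), on upper-quartile scaling for Vmat (−0.044) and DAT (−0.015), on quantile scaling for Vmat (−0.042) and DAT (−0.053), and without HPLC replicate 3 for SerT (0.0097, range without each library −0.0958 to 0.0097). None of the values that changed sign was called. Genes called lower numbered 3275 with upper-quartile, 3902 with quantile and 210 with neuron-marker scaling, against 1866 as deposited. Members called numbered 5 with upper-quartile, 6 with quantile and 2 with neuron-marker scaling, against 4. Calls in either direction made up 50.9%, 56.4% and 33.8% of all tested genes under these scalings, against 40.9% as deposited. Without each library in turn, 3448 to 4144 genes were called (1972 to 2228 higher and 1476 to 1916 lower), 2 to 4 members were called, the lowest without HPLC replicate 5 or LPHC replicate 2 or 4, and 11 to 15 pairs passed. With the replicate block, limma called 3 members and 3854 genes, and the sign-flip test of same-numbered pairs passed 0 of 28 pairs because its smallest possible p is 0.0625. The cause of the other changes was not tested. At each gene's lowest read count, counting error alone is 5.29% for Tdc2 and 3.92% for Trh, both in HPLC replicate 4, and 3.07% for ple in LPHC replicate 3. The CV in the same diet was 6.63% for Tdc2 and 3.87% for Trh on HPLC, and 4.56% for ple on LPHC. In the other diet it was 4.97% for Tdc2, 5.88% for Trh and 2.84% for ple. The part of depth in the calls was not tested.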
